A study of Mus musculus with 12 samples.

Results

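Ribosome footprints on 9 genes for axon growth and microtubule-binding proteins were examined in embryonic mouse brain and spinal cord. The genes were Mapt (ENSMUSG00000018411), Map1b (ENSMUSG00000052727), Map2 (ENSMUSG00000015222), Dcx (ENSMUSG00000031285), Stmn1 (ENSMUSG00000028832), Stmn2 (ENSMUSG00000027500), Dpysl3 (ENSMUSG00000024501), Gap43 (ENSMUSG00000047261) and Nsg2 (ENSMUSG00000020297). All 9 were found by identifier among the 10481 genes of the deposited table. They were selected on measured values, with results of these libraries already known, so every level, difference and p given for them is a description and no independent evidence of its direction. Control embryos of the Taiwanese model of spinal muscular atrophy (SMA) were Smn+/-; SMN2tg/0 and SMA embryos were Smn-/-; SMN2tg/0, both at E14.5. Every group thus carried the human SMN2 transgene, and the controls had a single working copy of Smn. Brain and spinal cord of each genotype gave 3 libraries, 12 in all, each taken here as tissue of 1 embryo. The paper states 3 embryos for each genotype, so brain and spinal cord libraries may come from the same embryos. The labels do not name the embryo, and the main fits between tissues and of the interaction had no term for it.

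Microtubules are the tracks and struts of a growing axon, built from tubulin dimers and held, bundled or taken apart by the proteins that bind them. Tau (Mapt), MAP1B and doublecortin (Dcx) bind the microtubules of young axons and migrating neurons, and MAP2 is the counterpart of tau in dendrites. Stathmin (Stmn1) and its membrane-bound relative SCG10 (Stmn2) bind tubulin dimers and favour disassembly. CRMP4 (Dpysl3) belongs to a family that binds tubulin and links guidance cues to the growth cone, GAP-43 is a phosphoprotein of the growth cone membrane, and Nsg2 is an endosomal protein of neurons. In SMA, motor neurons and their axons are the cells best known to suffer from low SMN. Ribosome profiling counts the mRNA fragments that ribosomes cover, so a gene's footprints depend on how much of its mRNA there is and on how densely ribosomes load it, which were not separated here.

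The shallowest brain library held 3683842 counts and the deepest 9117017. In spinal cord the totals went from 5162190 to 12793955, and all 3 SMA libraries were shallower than all 3 control ones. Regional markers followed the tissue labels. Summed over the 7 Hox genes with a name at hand, the level lay between 374 and 666 CPM (counts scaled to the size of the library, with TMM factors over all 12) in control spinal cord and between 2.08 and 4.15 CPM in control brain. Otx2, a gene of the forebrain and midbrain, had between 87.4 and 124 CPM in control brain, between 0.948 and 41.1 CPM in control spinal cord and between 1.94 and 8.39 CPM in SMA spinal cord. Control spinal cord library 1, the deepest of all, stood apart: it had 160 CPM on Top2a and 34.6 CPM on Kif11, genes of dividing cells picked for this check because earlier results of these data had shown them, against 21.6 to 40.7 and 5.44 to 10.1 CPM in the other 5 spinal cord libraries. Some values of the 9 genes in spinal cord are given without it as well. So are the medians of the microtubule, axon growth, neuron and progenitor lists in SMA against control spinal cord. Smn1 itself had no name at hand and was not analysed here, so the genotype of a library rests on its label.

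Together the 9 genes took 1.14% ± 0.125 of all counts in control brain and 1.25% ± 0.0889 in SMA brain (SD, n = 3 each). In spinal cord they took 0.951% ± 0.0861 in controls and 1.09% ± 0.0998 in SMA. Each of them was well covered: the mean over the 12 libraries ran from 1414 counts on Gap43 to 20620 counts on Map2. Counting error was therefore small next to the spread between libraries. The lowest share, 0.854% in control spinal cord library 1, had a 95% Wilson interval from 0.849% to 0.859%, and the highest, 1.31% in SMA brain library 1, one from 1.30% to 1.32%. These intervals cover counting error only.

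**Figure D1:**
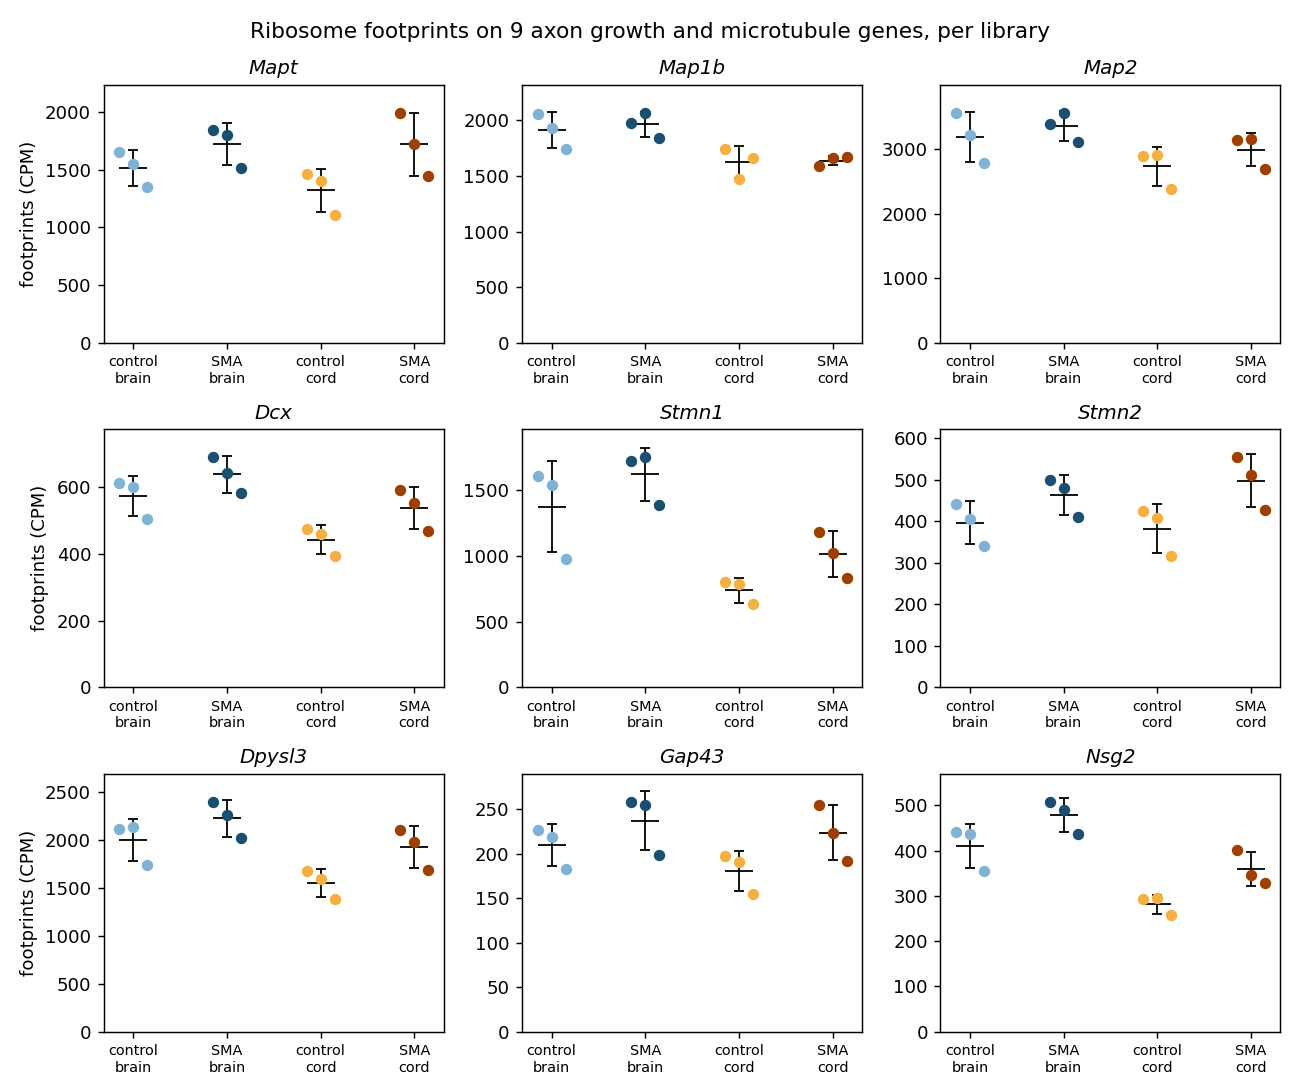
Footprints on each of the 9 genes in CPM (TMM factors over the 12 libraries; linear axes from 0). Points are single libraries, ordered within a group from the shallowest at the left to the deepest at the right, and black bars give mean ± SD of 3 libraries; in control brain the point at the right is the lowest for all 9 genes.

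Per kilobase of gene length, the level on stathmin was the highest and that on doublecortin the lowest in all 4 groups. In control brain, Stmn1 stood at 741 ± 187 CPM per kb (SD, n = 3), Dpysl3 at 302 ± 33.7, Mapt at 201 ± 20.8 and Map2 at 194 ± 23.4 CPM per kb. Below them, Gap43 had 138 ± 15.4, Map1b 121 ± 10.2, Nsg2 98.8 ± 11.6, Stmn2 70.7 ± 9.23 and Dcx 45.3 ± 4.70 CPM per kb. The libraries of Mapt and Map2 overlapped, as did those of Gap43 and Map1b, so the order within these pairs was not resolved. In both spinal cord groups Stmn2 and Nsg2 overlapped and stood in the opposite order, with 68.3 ± 10.4 and 67.7 ± 5.09 CPM per kb in control spinal cord. In SMA spinal cord the libraries of Dpysl3 and Mapt and those of Map2 and Gap43 overlapped too, and in SMA brain those of Map1b and Nsg2. The length is the one in the table, whose definition is not given in the sources used here and which is under 100 bases for 64 of all genes. For the 9 genes it ran from 1523 bases for Gap43 to 16449 for Map2, and these were not taken as coding lengths. Dcx had 12647 bases. Stmn1, Dpysl3 and Dcx kept the first, second and last place in all 4 groups when any 1 library was left out.

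**Figure D2:**
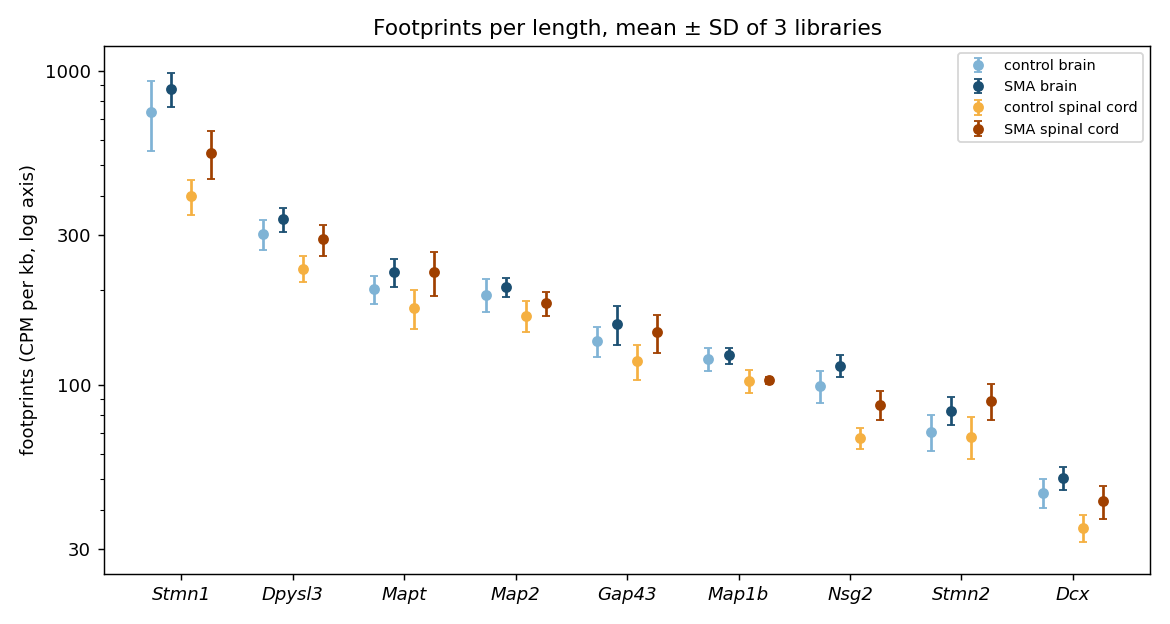
Footprints per length on the 9 genes (CPM per kb, log axis), as mean ± SD of 3 libraries in each of the 4 groups, ordered by control brain. Stmn1 is highest and Dcx lowest in every group, with 741 and 45.3 CPM per kb in control brain.

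The share of counts on these genes followed library depth. It fell from 1.31% and 1.29% in the SMA brain libraries of 3729097 and 3683842 counts to 0.854% in the control spinal cord library of 12793955, and libraries of both tissues and both genotypes lay along the same course. Within groups, the deepest library had the lowest CPM in 34 of 36 cases (9 genes in 4 groups), with Map1b in the 2 spinal cord groups as the exceptions. Over the whole table, at 20 counts or more on average, the deepest library was the lowest for between 29.9% and 41.8% of genes, depending on the group. The shallowest library had the highest CPM in 28 of the 36 cases. Over the same genes of the whole table it was the highest for between 28.4% and 37.9%, depending on the group.

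The slope of log2 count on log2 library total, with an intercept for each group, puts a size on this: at a slope of 1 a gene's count grows in proportion to depth and its CPM stays level. Stmn1 had a slope of 0.33 ± 0.05 (SE, 12 libraries), which 0.746% of 9781 genes fell below. Gap43 and Stmn2 followed at 0.59 ± 0.09 each, Mapt at 0.61 ± 0.10, Dpysl3 at 0.67 ± 0.06, Dcx at 0.68 ± 0.06, Nsg2 at 0.69 ± 0.05 and Map2 at 0.70 ± 0.07. Map1b, at 0.90 ± 0.08, was near the 25th percentile of all genes, whose median was 1.08. The slopes were also fitted in each tissue, and a difference between tissues was not tested. Stmn1 had 0.39 ± 0.05 in brain and 0.16 ± 0.07 in spinal cord, Mapt 0.73 ± 0.05 and 0.20 ± 0.13, Stmn2 0.68 ± 0.04 and 0.27 ± 0.18, and Map1b 0.83 ± 0.04 and 1.14 ± 0.19. Over all genes the median was 1.08 in brain, with quartiles of 0.93 and 1.22, and 1.01 in spinal cord, with wider quartiles of 0.63 and 1.42. For the 978 genes with the most counts per base the median was also lower in spinal cord, 0.61 against 0.87 in brain. Genes with many counts per base had lower slopes in general, with a wide spread. Over the 12 libraries, the 978 genes with the most counts per base had a median of 0.81 and quartiles of 0.66 and 0.95. The top 98 had a median of 0.70 and quartiles of 0.53 and 1.02. Stmn1, Gap43, Stmn2 and Mapt lay below the lower quartile of the 978 genes. Map1b, Map2, Dpysl3 and Nsg2 lay between the quartiles of the 978, and Dcx was not among these genes. Of the 9 genes, Stmn1 had the most, 3.92 counts per base, more than 99.8% of genes, and Dcx the fewest, 0.285, more than 80.1%. The study removed reads at the same position of a transcript before its positional analyses. Whether the deposited counts had this step is not given in the sources used here, and its part in the slopes was not tested.

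**Figure D3:**
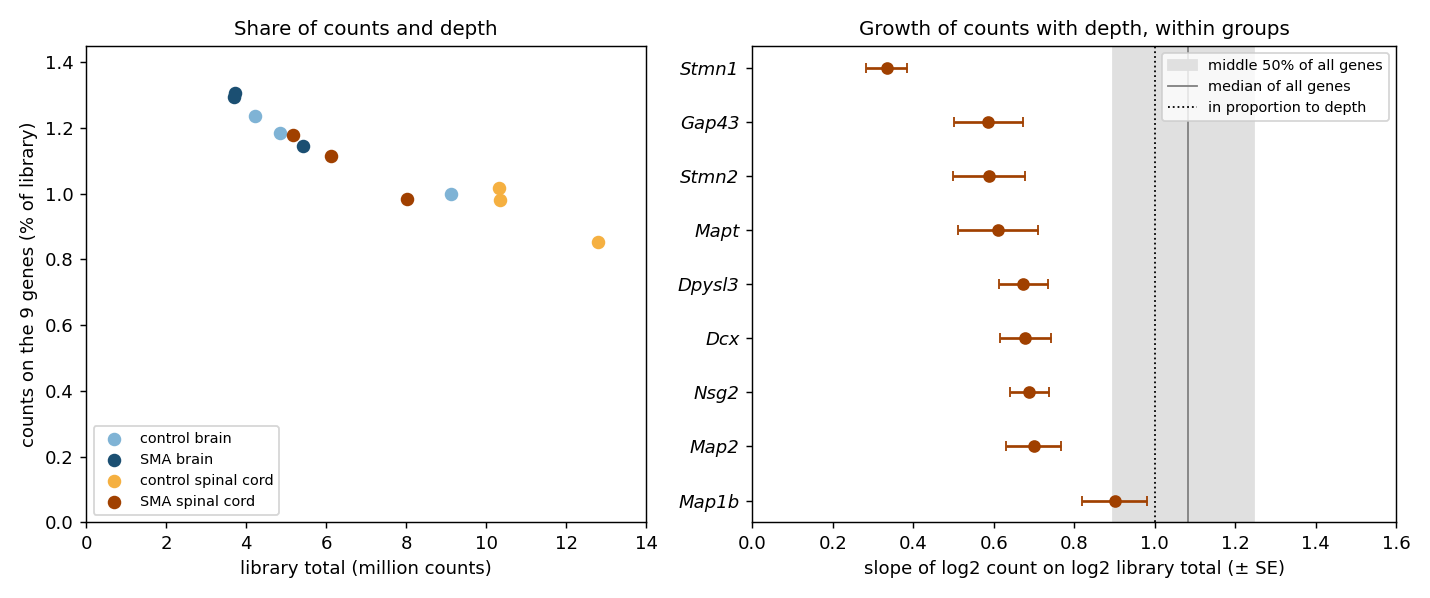
Left, share of a library's counts that lay on the 9 genes (%) against the library total (counts), 1 point per library; the share falls from 1.31% to 0.854% as the total grows. Right, slope of log2 count on log2 library total with an intercept for each group (points, ± SE, 12 libraries) beside the middle 50% (grey) and the median (1.08) of 9781 genes; a slope of 1 (dotted) means counts in proportion to depth, and Stmn1 is lowest at 0.33.

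In brain, SMA was compared with control to ask whether ribosome occupancy of these mRNAs is altered before birth. All 9 genes had a positive log2 fold change (SMA over control), from 0.05 for Map1b to 0.25 for Stmn1, with a median of 0.19 against 0.0014 over all genes. None passed an adjusted p of 0.05 in edgeR's quasi-likelihood test (0 of 9, with a background of 0% of genes, and adjusted p between 0.902 and 0.950). None passed the study's thresholds for pathways either, a log2 fold change of 0.3 or more in size with an unadjusted p below 0.05, which 1.19% of genes passed as higher and 2.57% as lower. At an unadjusted p below 0.05 alone there was 1 gene, Nsg2, with a background of 5.05%. DESeq2 called 0 of the 9. In bulk tissue, more cells of a type and more footprints per cell cannot be told apart.

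Stmn1 stood at 975, 1542 and 1606 CPM in control brain libraries 1, 2 and 3 and at 1753, 1389 and 1725 CPM in SMA brain libraries 1, 2 and 3. Its groups overlapped, and the lowest control and the lowest SMA value came from the deepest library of each genotype. The log2 fold change was 0.25 ± 0.16 (SE; edgeR, adjusted p = 0.902). For Nsg2, control brain had 355, 437 and 440 CPM and SMA brain 489, 436 and 508 CPM, a log2 fold change of 0.23 ± 0.11 (edgeR, adjusted p = 0.902). Stmn2 had 340, 406 and 442 CPM in control brain and 480, 410 and 500 CPM in SMA brain, with 0.24 ± 0.11 (edgeR, adjusted p = 0.902). In both genes SMA libraries 1 and 3 lay above all 3 controls and SMA library 2 did not. The log2 fold changes of Mapt (0.20), Gap43 (0.19), Dcx (0.17), Dpysl3 (0.17) and Map2 (0.09) had SEs between 0.10 and 0.12, and none of these genes separated the genotypes. All 9 thus overlapped in brain, where 4.82% of all genes were without overlap and higher in SMA.

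Control brain library 1, the deepest, carried much of this pattern. Without it, the log2 fold change of Stmn1 was 0.05, that of Nsg2 0.13 and that of Stmn2 0.13, while Map1b and Map2 stood at -0.018 and -0.0059. A density correction, which subtracts from each library its own trend of log2 level on counts per base, gave 0.10 for Stmn1, 0.17 for Nsg2, 0.20 for Stmn2, -0.022 for Map1b and -0.013 for Map2. The brain libraries closest in depth across genotypes, control 2 with 4839144 counts and SMA 2 with 5406430, differed little. The SMA library had from 0.9003 times (Stmn1) to 1.01 times (Stmn2) the CPM of the control one over the 9 genes. This is 1 library of each genotype, without a test.

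In spinal cord the same comparison gave larger values. Of the 9 genes 8 were positive, with Stmn1 at 0.44 and a median of 0.30 against -0.0054 over all genes, and Map1b stood at -0.00027. No gene passed an adjusted p of 0.05 in edgeR (0 of 9, background 0%, adjusted p between 0.684 and 1.00). Past the thresholds for pathways were 4 of 9 as higher (Stmn1, Stmn2, Mapt and Nsg2), against a background of 2.05%, and 0 of 9 as lower, against 2.14%. At an unadjusted p below 0.05 alone there were 6 of 9, those 4 with Dcx and Dpysl3, against 6.99%. DESeq2 called 1 of the 9, Nsg2 with an adjusted p of 0.0496, among 57 genes it called in all, and it gave 8133 genes no adjusted p. Under the other alternatives the adjusted p of Nsg2 lay between 0.292 and 0.979 (edgeR).

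Stmn1 stood at 631, 785 and 804 CPM in control spinal cord libraries 1, 2 and 3 and at 831, 1186 and 1026 CPM in the SMA libraries 1, 2 and 3. The groups did not overlap, though SMA library 1, the deepest of its genotype, lay just above the controls. The log2 fold change was 0.44 ± 0.14 (edgeR, adjusted p = 0.684). Nsg2 had 257, 295 and 292 CPM in controls and 328, 402 and 347 CPM in SMA, also without overlap, and its log2 fold change was 0.34 ± 0.10 (edgeR, adjusted p = 0.684). Stmn2, the growth cone stathmin, had 316, 407 and 424 CPM against 428, 555 and 510 CPM, with 0.37 ± 0.14 (edgeR, adjusted p = 0.684). Its groups were separated only by the gap between 424 and 428 CPM. For tau, control libraries had 1110, 1398 and 1459 CPM and SMA libraries 1446, 1993 and 1721 CPM, which overlapped, and the log2 fold change was 0.37 ± 0.14 (edgeR, adjusted p = 0.684).

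Dpysl3 had 1386, 1586 and 1676 CPM in control spinal cord and 1682, 2106 and 1977 CPM in SMA spinal cord. Its groups did not overlap, which made 4 of 9 genes without overlap and higher in SMA (Stmn1, Stmn2, Dpysl3 and Nsg2), against 7.52% of all genes. Its log2 fold change of 0.30 ± 0.10 lay just under the fold threshold for pathways, as did those of Gap43 (0.29 ± 0.13) and Dcx (0.27 ± 0.11). Map2 had 0.12 ± 0.09, and Map1b was level, with 1663, 1470 and 1741 CPM in controls and 1668, 1589 and 1657 CPM in SMA.

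The number of genes past the thresholds for pathways in spinal cord moved with single libraries, from 4 with all 6. Leaving out control library 1 gave 1, control library 2 gave 5 and control library 3 gave 6. Leaving out SMA library 1 gave 7, SMA library 2 gave 0 and SMA library 3 gave 2. Without control library 1 the log2 fold change was 0.34 for Stmn1, 0.28 for Nsg2, 0.26 for Mapt and 0.25 for Stmn2. With the density correction the number was 0, and the log2 fold changes were 0.25 for Stmn2, 0.23 for Nsg2 and Dcx, 0.17 for Stmn1, 0.15 for Mapt and -0.08 for Map2. With log2 library total as a covariate, 8 genes turned negative, from -0.04 for Nsg2 to -0.29 for Mapt, and Map1b stood at 0.10. Since SMA spinal cord libraries were all shallower than control ones, depth and genotype cannot be told apart there by such a fit. The libraries closest in depth, control 3 with 10315064 counts and SMA 1 with 8027322, differed by factors from 0.929 for Map2 to 1.123 for Nsg2, with Stmn1 at 1.03 and Stmn2 at 1.01.

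**Figure D4:**
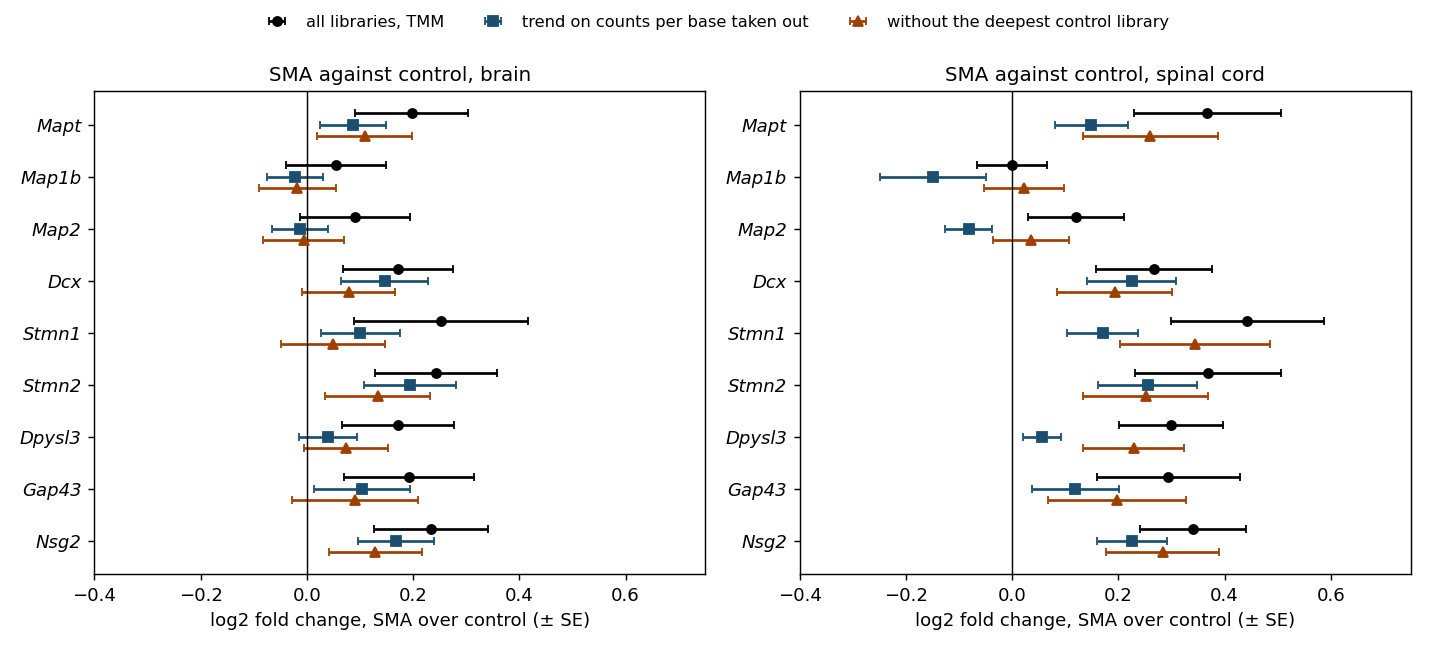
Log2 fold change of SMA over control (points, ± SE) for the 9 genes in brain (left) and spinal cord (right), with 3 libraries a group. Black is the fit with all libraries, blue the fit with the density correction, brown (triangles) the fit without the deepest control library; Stmn1 in spinal cord goes from 0.44 to 0.17 and 0.34.

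The values were larger in spinal cord than in brain for 8 of the 9 genes, and the difference itself was tested as an interaction term, tissue by genotype, in a fit to the 12 libraries. It lay between -0.03 (Map1b) and 0.21 (Stmn1) on the log2 scale. None of the 9 passed, with 0% of all genes called at an adjusted p of 0.05 and an adjusted p of 1.00 for each of the 9 (edgeR). None had an unadjusted p below 0.05 either, where 2.38% of genes did. A difference of the SMA effect between tissues was thus not detectable for these genes.

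Between tissues, the level on several of these genes was lower in spinal cord than in brain, and stathmin most of all. In controls the 9 log2 fold changes (spinal cord over brain) were all negative, with a median of -0.22 against 0.015 over all genes. At an adjusted p below 0.05 in edgeR, 4 genes were called lower (Stmn1, Nsg2, Dcx and Dpysl3), where 18.1% of genes were called lower and 20.4% higher. Stmn1 had 975, 1542 and 1606 CPM in control brain against 631, 785 and 804 CPM in control spinal cord, a log2 fold change of -0.88 ± 0.19 (edgeR, adjusted p = 0.00943). Nsg2 had 355, 437 and 440 CPM against 257, 295 and 292 CPM, with -0.53 ± 0.11 (edgeR, adjusted p = 0.00802). Dcx, with 504, 601 and 612 CPM against 393, 460 and 475 CPM, had -0.36 ± 0.11 (edgeR, adjusted p = 0.0359). Dpysl3 had -0.36 ± 0.11 (edgeR, adjusted p = 0.0388). In these 4 genes every spinal cord library lay below every brain library, as 26.2% of all genes did. Stmn2, by contrast, stood at -0.04 ± 0.14, with 340 to 442 CPM in brain and 316 to 424 CPM in spinal cord.

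In SMA embryos the tissues compared in a similar way, with 3 genes lower in spinal cord at an adjusted p below 0.05 (Stmn1, Nsg2 and Map1b; background 17.2% lower and 19.5% higher). Stmn1 had -0.67 ± 0.13 (edgeR, adjusted p = 0.00625), Nsg2 -0.40 ± 0.10 (edgeR, adjusted p = 0.0130) and Map1b -0.25 ± 0.06 (edgeR, adjusted p = 0.0104). Nsg2 was no longer called without SMA brain library 1, SMA brain library 3 or SMA spinal cord library 3, where its adjusted p lay between 0.0502 and 0.0539 (edgeR). Mapt and Stmn2 had small positive values of 0.0075 ± 0.12 and 0.11 ± 0.11, and the other 4 genes values from -0.24 to -0.08. Control brain libraries were all shallower than control spinal cord libraries. In SMA, brain libraries 1 and 3 were shallower than every spinal cord library and brain library 2 lay between spinal cord libraries 2 and 3.

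Stmn1 and Nsg2 kept a negative value in controls under each treatment of depth, at different sizes. With the density correction, controls gave -0.42 for Stmn1, -0.32 for Nsg2 and -0.30 for Dcx, each still called, whereas Dpysl3 stood at 0.05 and Mapt, Map2, Stmn2, Gap43 and Map1b turned positive as well. In SMA, the same treatment left Stmn1 at -0.38 and Nsg2 at -0.25, while Map1b (-0.07) was no longer called, and Mapt (0.25) and Stmn2 (0.25) were called as higher in spinal cord. With log2 library total as a covariate no gene of the 9 was called in controls, and Stmn1 stood at -0.15 and Nsg2 at -0.20. Leaving out control brain library 2 or 3, or control spinal cord library 1 or 2, gave 2 calls in place of 4, Stmn1 and Nsg2 (-0.78 and -0.47 without control spinal cord library 1), and leaving out control brain library 1 gave 6. In the pair of control libraries closest in depth, brain 1 with 9117017 and spinal cord 3 with 10315064 counts, the spinal cord library had 0.825 times the CPM on Stmn1, 0.823 times on Nsg2 and 1.25 times on Stmn2. In SMA, brain 2 and spinal cord 2 gave 0.854 for Stmn1, 0.922 for Nsg2, 1.35 for Stmn2 and 1.32 for Mapt.

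**Figure D5:**
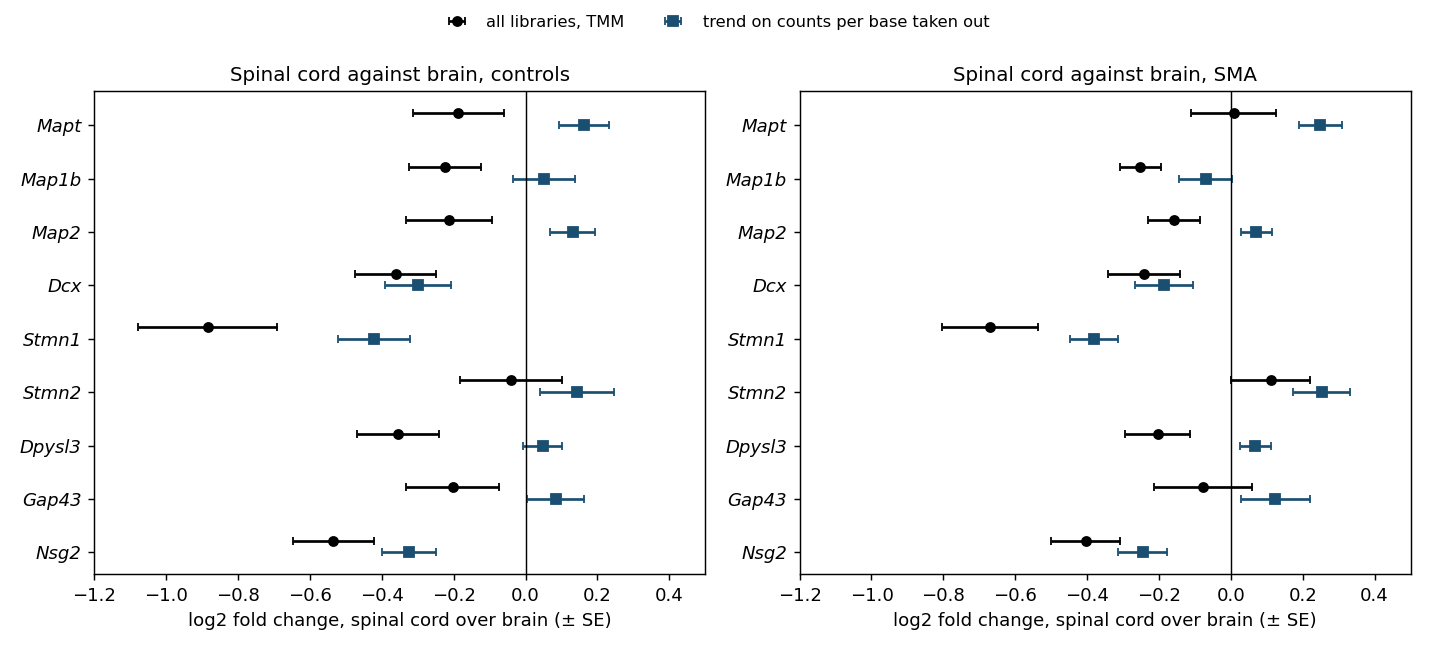
Log2 fold change of spinal cord over brain (points, ± SE) for the 9 genes in controls (left) and SMA (right), 3 libraries a group. Black is the fit with all libraries and blue the fit with the density correction; Stmn1 stays negative (-0.88 and -0.42 in controls) while Mapt goes from -0.19 to 0.16.

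Other genes for microtubule regulation and axon growth were read from lists that were written with these results known and of which only part had a name at hand. Of 61 listed microtubule genes besides the 9, 12 were named. In SMA brain 0 of them passed the thresholds for pathways. In SMA spinal cord 2 were lower and 0 higher, where 2.14% of all genes passed as lower, with a median of 0.04 against -0.0054 over all genes. Without control spinal cord library 1, 1 was lower and the median was 0.0015. The 2 were Nde1, a partner of dynein and LIS1 in dividing progenitors (-0.59 ± 0.16; edgeR, adjusted p = 0.684), and Katna1, the severing subunit of katanin (-0.67 ± 0.28; edgeR, adjusted p = 0.684). Of 82 listed axon growth genes, 17 were named, with a median of 0.04 in SMA brain and 0.03 in SMA spinal cord, which was -0.00013 without control spinal cord library 1. The Rac activator Tiam1 was past the thresholds in both tissues, with -0.33 ± 0.11 in brain and -0.34 ± 0.14 in spinal cord, and the reticulon Rtn1 in spinal cord with 0.37 ± 0.10 (edgeR, adjusted p from 0.684 to 0.902 for all 3). These were 1 lower in brain (background 2.57%) and 1 higher and 1 lower in spinal cord (background 2.05% and 2.14%), and without control spinal cord library 1 there were 0 and 0. With the density correction, Nde1 in spinal cord (-0.51, unadjusted p = 0.0155 from edgeR) was the only gene of both lists past the thresholds in either tissue. Katna1, at -0.60, and Tiam1, at -0.28 in brain and -0.27 in spinal cord, changed little in size, and Rtn1 stood at 0.20.

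Between tissues the lists were called at shares near those of all genes, of which 20.4% were higher and 18.1% lower in spinal cord in controls. There, 3 of the 12 microtubule genes were higher in spinal cord at an adjusted p below 0.05 (edgeR) and 3 lower, and 5 of the 17 axon growth genes were higher and 3 lower. The highest were Tppp3, a tubulin polymerization-promoting protein, with 1.42 ± 0.21, and the guidance cue netrin-1 (Ntn1) with 1.24 ± 0.14. Rac3 (0.80), Alcam (0.79), Nav1 (0.24) and Mark3 (0.21) were higher too. The lowest were Nde1 with -1.51 ± 0.16 and the ephrin Efnb2 with -1.01 ± 0.13, followed by Rhoa (-0.50), Vash1 (-0.47), Clip3 (-0.40) and Dpysl2 (-0.36), the last a relative of Dpysl3. With the density correction 2 microtubule genes were called higher and 2 lower, and 6 axon growth genes higher and 2 lower. Of all 10481 genes, 4054 were then called in either direction. Tppp3 (1.49), Ntn1 (1.26), Nde1 (-1.59) and Efnb2 (-1.08) changed little in size, whereas Clip3 stood at -0.19 and Dpysl2 at -0.13.

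Markers of the cell types in these tissues were read in the same way. Of 7 named neuron genes, 0 passed the thresholds for pathways in either SMA comparison, and their median log2 fold change was 0.08 in brain and 0.19 in spinal cord, or 0.0069 and 0.06 with the density correction. Without control spinal cord library 1 the median was 0.08 in spinal cord, and without control brain library 2 it was -0.06 in brain. Their summed level lay between 3044 and 3857 CPM in control and between 3681 and 4150 CPM in SMA spinal cord. Of 10 named progenitor genes, 1 passed as lower in each tissue, the intermediate filament gene Nes with -0.33 in brain and -0.41 in spinal cord, where 2.57% and 2.14% of all genes passed as lower. The progenitor list was mixed in direction. Its median was -0.05 in brain, with 3 genes positive and 7 negative, and -0.10 in spinal cord, with 4 positive and 6 negative. Without control spinal cord library 1 the spinal cord median was 0.02, with 5 positive and 5 negative, and 1 gene passed as lower. The summed progenitor level lay between 1004 and 1148 CPM in control and between 1067 and 1136 CPM in SMA spinal cord. Between tissues in controls, 3 of the 7 neuron genes were higher in spinal cord and 1 lower, and 5 of the 10 progenitor genes were lower and 1 higher, against 20.4% of all genes called higher and 18.1% lower. With the density correction 6 of the neuron genes were higher and 1 lower, and their median went from 0.23 to 0.42. Of the progenitor genes 5 were lower and 1 higher with it, where 4054 of all 10481 genes were called in either direction. Genes of blood, liver, mesenchyme and vessels had 4 names in all. The erythroid pair Slc4a1 and Epor summed to between 1.23 and 2.81 CPM in control and between 3.30 and 10.9 CPM in SMA spinal cord, of which Slc4a1 was higher past the thresholds for pathways (2.08 ± 0.57) and Epor stood at -0.77 ± 0.92. The liver gene Apoa2 had between 0.375 and 45.3 CPM in control and between 1.64 and 116 CPM in SMA spinal cord. It had 0 CPM in control brain and from 0 to 3.55 CPM in SMA brain, where it passed the thresholds for pathways as higher. Without SMA brain library 1 its log2 fold change in brain was 0. In spinal cord its log2 fold change was 1.28, and -2.96 without SMA spinal cord library 1. In brain, Col1a1 was lower in SMA past the thresholds for pathways (-0.95). It did not pass them without control brain library 1 (-0.54), SMA brain library 1 (-0.79) or SMA brain library 3 (-0.80). No gene of the Schwann cell and microglia lists had a name at hand. The part of cell composition in the values of the 9 genes was not tested.

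Across the 12 libraries the 9 genes went up and down together, with a Pearson r of log2 CPM between 0.14 and 1.00 and a median of 0.85 over the 36 pairs. The lowest was that of Map1b and Stmn2. Among the genes most like their mean profile, of 1921 named ones, were Fabp7 (r = 0.98), Tubb6 (0.98), Ppp2ca (0.96) and Calm3 (0.96), and log2 library total had r = -0.98 with the same profile. For single genes r with log2 total ran from -0.98 for Dpysl3 to -0.68 for Stmn2. Fabp7 and Calm3 had slopes on depth of 0.49 and 0.44, and each had more counts per base than at least 96.7% of genes. Tubb6 and Ppp2ca had slopes of 0.62 and 0.84, with more counts per base than 66.7% and 67.7% of genes. The 12 points of these correlations share 2 tissues, 2 genotypes and their depth, and are given as a description.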

How the data were processed

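Footprint counts of 12 libraries, 3 per tissue and genotype, were taken as deposited, grouped by their labels. Per the paper's methods, the authors trimmed reads with Cutadapt 4.1, removed rRNA and tRNA reads, aligned the rest with STAR 2.5.3a with Gencode M22 (build GRCm38.p6 per the labels), allowed up to 5 alignments per read, and filtered genes by FPKM. The deposited values are raw counts per gene without normalization, with a gene length. Whether reads at the same position were removed before counting is not given in the sources used here. The members and lists were chosen with earlier results of these data known.

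All 10481 genes were fitted in each tissue with edgeR 4.0.16 (TMM, quasi-likelihood test, no covariate, 2-sided) in R 4.3.3, with Benjamini-Hochberg adjustment, and the interaction was fitted over 12 libraries. CPM use TMM factors over 12 libraries. For the density correction, each library's lowess trend of log2 level on log2 counts per base entered as an offset. Named genes follow the member list, the list members past a threshold (the 3 highest and lowest where more), and the 5 closest profiles. Some items these rules select are not reported here. Alternatives were DESeq2 1.42.0, other factors, filters and fits, the replicate block, and each library left out. Scripts were tested on simulated data. Of the identifiers, 1999 had a name in the study's supplement (3 of the 9 genes), the other 6 were named by the list itself, and the RefSeq table matched 0. Libraries of a group differed beyond counting noise (chi-square per gene 4.00 to 24.5). Deviations of same-numbered SMA libraries of brain and spinal cord correlated weakly (r = 0.35, 0.11 and 0.15). Each r was above 0.1, which met the criterion for pairing in that comparison alone. In controls r between the tissues was 0.11, 0.0096 and 0.13. Values given between tissues in SMA are without the block, which left the same number of calls.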

Additional observations from a re-analysis of the deposited data

How the results depend on the processing

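Depth was the setting that moved most values, and its cause was not tested. Over all alternatives other than single libraries left out, 395 of 441 values kept their sign. The number of genes past the thresholds for pathways in SMA spinal cord was 0 with the density correction and 0 with log2 library total as a covariate, a setting added after seeing the data, against 4. The covariate gave 0 calls for the tissues in controls against 4, upper-quartile factors gave 5 in SMA against 3, and DESeq2 called 1 gene in SMA spinal cord against 0. With single libraries left out, the counts lay between 0 and 2 for the pathway thresholds in SMA brain, between 0 and 7 in SMA spinal cord, and between 2 and 6 for calls between tissues in controls. The replicate block gave 6 calls there against 4 and 3 in SMA against 3, and it moved no other count. Same-numbered libraries did not all correlate above 0.1 in the other comparisons, so the block is no better design there. The alternative with coding-sequence length was not run, for want of such lengths.

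In SMA brain the sign turned with the density correction for Map1b (-0.022) and Map2 (-0.013), and with the covariate for Map1b (-0.046), Map2 (-0.041) and Stmn1 (-0.016). In SMA spinal cord Map1b, near 0, was 0.0034 with DESeq2, 0.015 with upper-quartile factors, 0.00021 with filterByExpr, 0.0029 with the replicate block, 0.012 in one fit over 12 libraries and 0.10 with the covariate. There Map2 was -0.082 with the density correction, and the covariate gave -0.29 for Mapt, -0.27 for Map2, -0.21 for Dcx, -0.26 for Stmn1, -0.23 for Stmn2, -0.16 for Dpysl3, -0.28 for Gap43 and -0.038 for Nsg2. Between tissues in controls, Stmn2 was 0.011 with library size alone. The correction gave Mapt 0.16, Map1b 0.051, Map2 0.13, Stmn2 0.14, Dpysl3 0.048 and Gap43 0.084, and the covariate Mapt 0.15, Map2 0.14, Stmn2 0.37 and Gap43 0.15. In SMA, Mapt was -0.078 with upper-quartile factors and -0.00014 in one fit. The correction gave Map2 0.070, Dpysl3 0.068 and Gap43 0.12, and the covariate Map2 0.025, Dcx 0.014, Dpysl3 0.051 and Gap43 0.30. The interaction turned for Map2 with the density correction (-0.069), and with the covariate for Map2 (-0.072), Dcx (-0.012), Stmn1 (-0.078), Stmn2 (-0.014) and Gap43 (-0.033).

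Leaving out single libraries turned the sign of Map1b (-0.018 to 0.12) and Map2 (-0.0059 to 0.18) in SMA brain, Map1b in SMA spinal cord (-0.068 to 0.049), Stmn2 between tissues in controls (-0.14 to 0.082), Mapt (-0.11 to 0.11) and Gap43 (-0.20 to 0.016) between tissues in SMA, and the interaction of Map1b (-0.095 to 0.036), Map2 (-0.033 to 0.14) and Gap43 (-0.0038 to 0.23).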
